A study of Homo sapiens with 8 samples.

Results

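Clustered peaks of the transcription factor LSF were examined on the autosomes other than chromosome 6. A peak was counted as clustered when another peak, of either peak list, lay at most 20 kb away, edge to edge. Peaks so joined form a run. The peaks came from a stable line derived from HEK293T, an established human embryonic kidney cell line, that expresses HA-tagged LSF from a transgene of the RheoSwitch ligand-inducible system. HA-LSF was induced with 5 μM RSL1 for 24 h, chromatin was digested with micrococcal nuclease, and fragments the size of 1 or of 2 nucleosomes, recovered from the HA ChIP and from the input, were sequenced as separate libraries. With 8 libraries and 1 per condition, no value below has a replicate, and the 4 libraries of cells given DMSO in place of RSL1 were not analysed here. The HA antibody is directed at the tag, and endogenous LSF in the same cells is not measured. Without the libraries of cells given DMSO, enrichment unrelated to the tagged protein cannot be told apart here from its binding.

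The members were chosen by the positions of called peaks, which are measured values, and their number and spacing are given as a description without a test. The mono-nucleosome list has 1983 peaks and the di-nucleosome list 429. One di-nucleosome row that ends past the end of chromosome 11 was dropped, as were the 27 peaks touching chromosome 17 from 8.0 to 8.2 Mb. Of the 1824 peaks on the 21 remaining autosomes, 196 were clustered, or 10.7%, and they formed 57 runs. These comprised 149 of 1557 mono-nucleosome peaks (9.57%) and 47 of 267 di-nucleosome peaks (17.6%). Coordinates are in hg19, the build named in the submitters' processing notes, and count from 1.

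LSF, encoded by TFCP2, is a ubiquitously expressed transcription factor that binds DNA as an oligomer and acts at cellular and viral promoters. In a ChIP experiment, DNA crosslinked to the tagged factor is recovered with the antibody, and a peak marks a place where reads from the ChIP exceed those from the input. Micrococcal nuclease cuts the linker DNA between nucleosomes. A mono-nucleosome fragment therefore reports a single protected particle, and a di-nucleosome fragment a neighbouring pair with its linker, so the same bound region can appear in both size classes, in broader form in the latter. Several peaks in close succession can represent separate bound sites or pieces of a single broad region, and the peak lists alone do not separate these.

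Most runs were small, and most clustered peaks were in a few large ones. Of the 57 runs, 43 had 2 peaks, 3 had 3 peaks and 11 had 4 or more. The 11 large runs held 101 of the 196 clustered peaks (51.5%), and the 3 largest alone held 52 (26.5%). The median span was 11.1 kb over all runs, with a range from 1995 bp to 74.1 kb, and 27.5 kb over the runs of 4 or more. Together the runs spanned 814 kb.

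The lists were mixed in a way that followed the size of the run. Peaks of both lists were present in 26 runs and mono-nucleosome peaks alone in 31, whereas no run consisted of di-nucleosome peaks alone. All 47 clustered di-nucleosome peaks thus shared a run with at least 1 mono-nucleosome peak. Each of the 11 runs of 4 or more held both lists. The runs of mono-nucleosome peaks only were 29 pairs and 2 runs of 3, and 14 of the 43 pairs had 1 peak of each list. The mono-nucleosome list is the larger, and a run of more peaks has more chances to hold both lists. The counts were corrected neither for the sizes of the lists nor for those of the runs.

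**Figure D1:**
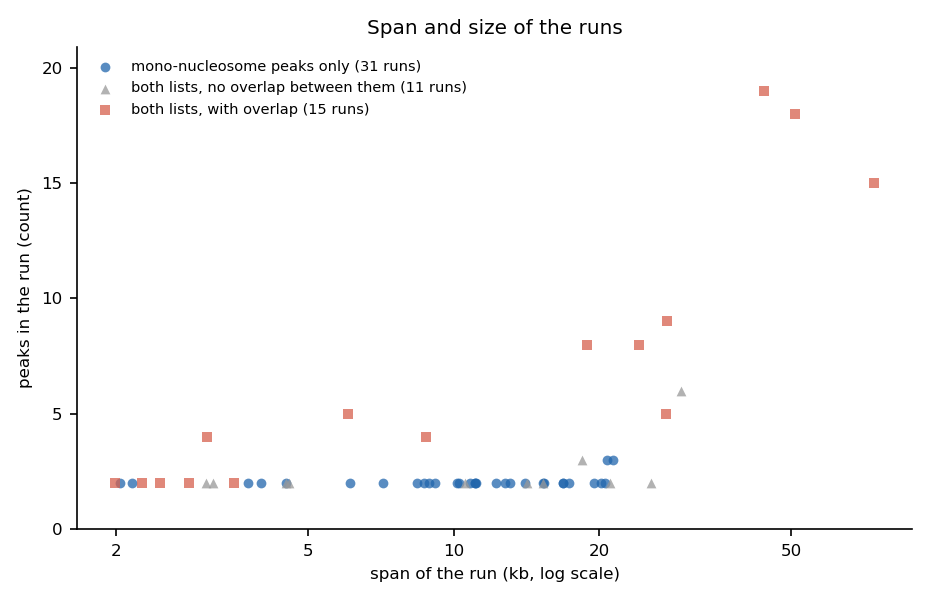
Each point is a run, with its span in kb on the logarithmic horizontal axis and its number of peaks on the vertical axis; symbols separate the 31 runs of mono-nucleosome peaks only, the 11 runs of both lists without overlap and the 15 runs of both lists with overlap. Runs of mono-nucleosome peaks only hold 2 or 3 peaks at any span, and the 3 runs at the upper right hold 19, 18 and 15.

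The run with the most peaks was on chromosome 16, at chr16:3198628-3242435. Its 15 mono-nucleosome and 4 di-nucleosome peaks lay within 43.8 kb and covered 65.7% of it. An empty stretch of 10007 bp divided it into a left block of 8 peaks and a right block of 11. The left block was dominated by a di-nucleosome peak of 7985 bp at chr16:3200457-3208441 with a score of 409, under which lay 4 mono-nucleosome peaks with scores from 50.6 to 228. The score is the value that the authors' peak caller gave to each peak and was 50.0 at the lowest. Its scale is not given in the sources used here, so scores are compared by order, and the same cut-offs of 60 and 100 were applied to both lists. In the right block the widest clustered peak, a di-nucleosome peak of 13480 bp at chr16:3228956-3242435 with a score of 282, overlapped 5 mono-nucleosome peaks. The scores of these 5 were, from left to right, 117, 369, 91.8, 385 and 190. All 4 di-nucleosome peaks of the run and 12 of the 15 mono-nucleosome peaks overlapped the other list. The 3 that did not scored 62.4, 143 and 50.2.

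On chromosome 1 a run of 12 mono-nucleosome and 6 di-nucleosome peaks occupied chr1:161362169-161413047. Its scores ranged from 56.4 to 193, and 10 of the 18 peaks exceeded 100. Its highest score belonged to a di-nucleosome peak at chr1:161368867-161372646, whereas its highest mono-nucleosome peak, with a score of 164, lay 24719 bp away at chr1:161397366-161398569. Of its 6 di-nucleosome peaks, 5 overlapped a mono-nucleosome peak. Further along the chromosome followed a run of 6 peaks at chr1:161480661-161510170, after 67.6 kb, and a pair at chr1:161581546-161591715, after another 71.4 kb. The second run had lower scores, from 51.4 to 102, and neither of its di-nucleosome peaks met a peak of the other list. The pair consisted of mono-nucleosome peaks with scores of 103 and 52.6. The 3 runs together placed 26 clustered peaks within 230 kb, with the overlaps all in the first.

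The longest run lay on chromosome 5 at chr5:180596509-180670635, 74.1 kb long and 245 kb from the end of the chromosome. It held 10 mono-nucleosome and 5 di-nucleosome peaks over 30.5% of its length. The highest score of any clustered peak, 822, was that of a mono-nucleosome peak of 5025 bp at chr5:180614173-180619197. It lay wholly inside a di-nucleosome peak at chr5:180612207-180619209 with a score of 547.5, and both ranked second in their whole lists. The other mono-nucleosome peaks of the run scored lower, the next 344, 273, 248 and 187, and the lowest 50.6.

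A very different arrangement was found at chr1:145392941-145401717. Here a single di-nucleosome peak of 8777 bp with a score of 612, the highest of its list, overlapped 3 mono-nucleosome peaks with scores of 506, 520 and 285. The mono-nucleosome peaks followed each other closely and no part of the run lay outside the di-nucleosome peak. The row dropped from chromosome 11 has exactly this start and end but a different score, 275. Why the same coordinates are listed under both chromosomes is not known. The nearest other peak was 1449 kb away.

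Chromosome 14 had a pair of large runs 23.8 kb apart, at chr14:21077258-21101486 with 8 peaks and at chr14:21125243-21152776 with 5 peaks. In both, most scores were near the lowest in the lists and the strong signal was at the right end. In the first run 5 of 8 peaks scored below 60, and the highest, a mono-nucleosome peak at chr14:21099422-21101486, scored 288. In the second 3 of 5 scored below 60, and a di-nucleosome peak with a score of 232 at chr14:21150757-21152776 overlapped a mono-nucleosome peak with a score of 212. The distance of 23.8 kb between the runs exceeded the limit for joining by a small margin.

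On chromosome 11, a run of 6 mono-nucleosome and 2 di-nucleosome peaks at chr11:59317683-59336581 began with a mono-nucleosome peak of score 374 that overlapped no di-nucleosome peak. This was the highest score of any clustered mono-nucleosome peak without overlap. The di-nucleosome peaks of the run had scores of 87.9 and 61.2. On chromosome 12, the run at chr12:125397640-125425271 had 6 mono-nucleosome and 3 di-nucleosome peaks, and its highest scores in the respective lists, 173 and 171, lay 11385 bp apart. Thus at both places the strongest signals of the size classes did not coincide.

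Chromosome 17, outside the stretch from 8.0 to 8.2 Mb, had compact runs. The run at chr17:37020264-37026296 placed 5 peaks within 6.03 kb with scores from 55.9 to 190, and that at chr17:37309406-37312499 placed 4 peaks within 3.09 kb with scores from 51.4 to 92.2. The latter was the only one of the 11 runs of 4 or more without a peak above 100. A pair at chr17:73028783-73031611 consisted of a mono-nucleosome peak of score 414 and a di-nucleosome peak of score 180 that overlapped by 2045 bp.

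**Figure D2:**
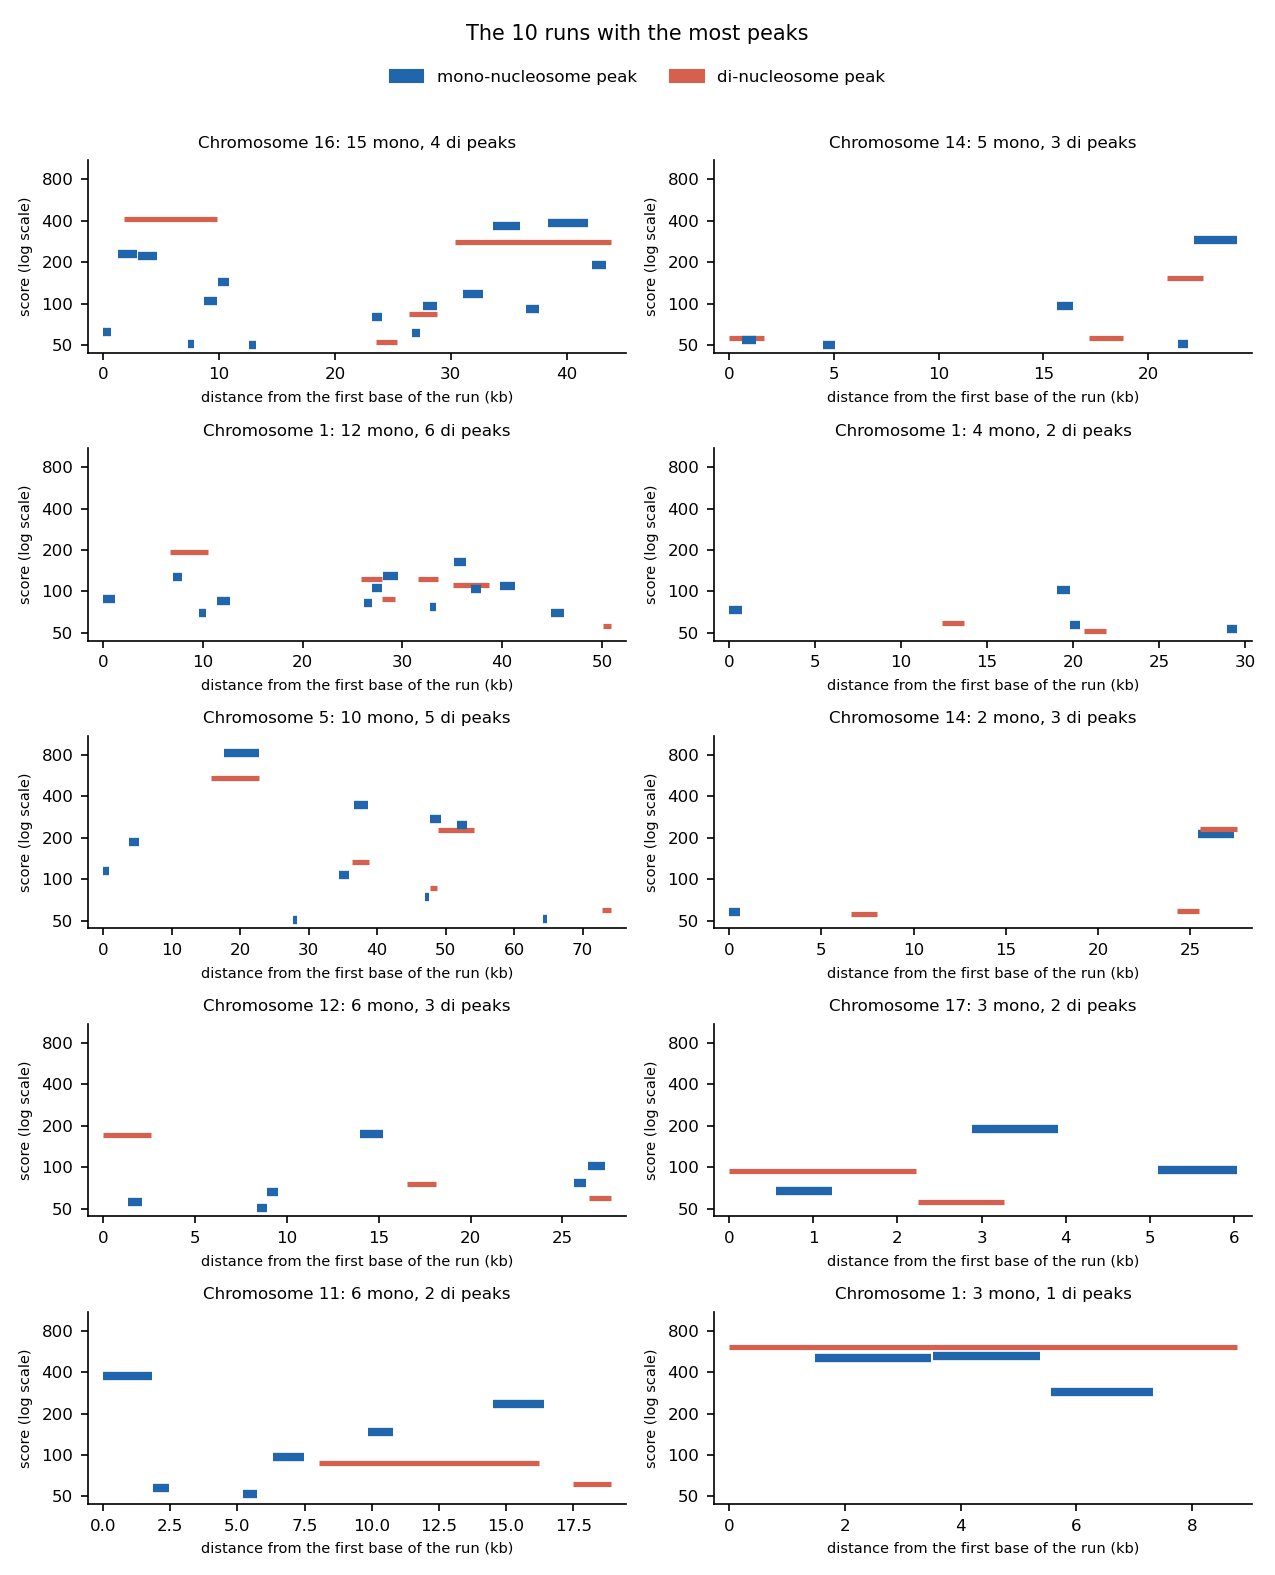
Each panel is one of the 10 runs with the most peaks; segments show the extent of each peak as the distance in kb from the first base of the run, and their height is the peak score on a logarithmic axis, with mono-nucleosome peaks in blue and di-nucleosome peaks in red. The chromosome 5 run has the highest segment, at 822, and the last panel shows 3 mono-nucleosome peaks under a single di-nucleosome peak with a score of 612.

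Within the runs, peaks of the mono-nucleosome list followed each other at a median of 4643 bp between midpoints over 92 successive steps, and at 2962 bp in the runs of 4 or more. Di-nucleosome peaks were further apart, with a median of 9472 bp over 21 steps, all in runs of 4 or more. Of the 92 mono-nucleosome gaps 26 were under 1 kb and 7 were of at most 50 bp, the smallest being 11 bp. These nearly touching peaks were all in the large runs. When peaks of a list under such short distances were merged before joining, up to 1 kb, the number of runs, of clustered peaks and of mixed runs stayed within 1.5 times the values above.

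Overlap between the lists was counted when at least 1 bp was shared. Of the 47 clustered di-nucleosome peaks 29 overlapped a mono-nucleosome peak, or 61.7% (95% Wilson interval 47.4% to 74.2%, counting error only), beside 16.8% of the 428 peaks of the whole list. In the mono-nucleosome list 44 of 149 clustered peaks met one of the di-nucleosome list, or 29.5% (22.8% to 37.3%), beside 5.24% of the whole list. Any overlapping peaks are joined by the rule, and no peak without a neighbour can overlap, so nothing is read from these differences. The shares were set beside those of clustered peaks elsewhere, which the same rule would join. On chromosome 6 the shares were 61.4% of 57 di-nucleosome and 38.8% of 121 mono-nucleosome peaks, with intervals of 48.4% to 72.9% and 30.6% to 47.7%. Both intervals overlapped those of the other autosomes. In the stretch of chromosome 17 left out, 7 of 11 di-nucleosome peaks overlapped, or 63.6% (35.4% to 84.8%). Of the mono-nucleosome peaks 12 of 16 did, or 75.0% (50.5% to 89.8%). This interval lay above that of all mono-nucleosome members. It overlapped that of the 69 mono-nucleosome members in runs of 4 or more, 56.5% (44.8% to 67.6%). The 16 peaks are neighbours in the same stretch and are not independent. On chromosome X, with 8 and 12 clustered peaks, 1 of each list overlapped.

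Overlaps were present in part of the mixed runs. In 15 of the 26 runs with both lists at least 1 pair overlapped, and in 11 none did. Of the 11 runs of 4 or more, 10 had an overlap, and of the 14 pairs with 1 peak of each list, 5. Of the 29 overlapping di-nucleosome peaks, 17 met 1 mono-nucleosome peak, 9 met 2 and 3 met 3 or more. The 47 overlapping combinations shared a median of 1017 bp, and in 30 the mono-nucleosome peak lay wholly inside the di-nucleosome peak. Taken over all its mono-nucleosome peaks, a median of 54.2% of an overlapping di-nucleosome peak was covered. The remaining 18 clustered di-nucleosome peaks lay between 241 bp and 17.2 kb from the nearest mono-nucleosome peak, with a median of 3462 bp.

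The highest peaks of the size classes did not always coincide. In 10 of the 26 mixed runs the highest mono-nucleosome peak overlapped the highest di-nucleosome peak, among them 5 of the 11 runs of 4 or more. In the other 16 they were separated by 672 bp to 28.6 kb, the largest distance being in the chromosome 16 run. These 16 include the 11 mixed runs without any overlap, where the highest peaks could not overlap. The 10 were all among the 15 mixed runs with an overlap. Across the 29 overlapping di-nucleosome peaks, the score and that of the best mono-nucleosome peak beneath had a Spearman's rho of 0.611. These peaks share runs and libraries. For 9 of them the best was taken from 2 mono-nucleosome peaks and for 3 from 3 or more. A wider di-nucleosome peak can meet more of them, so the value is only a description across peaks. Departures were large in single cases. The di-nucleosome peak at chr12:125397640-125400255 scored 171, rank 16 in its list, over a mono-nucleosome peak of 55.45, rank 1030 in its list. That at chr17:37022508-37023530 scored 55.9, rank 240, over a mono-nucleosome peak of 190, rank 35.

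**Figure D3:**
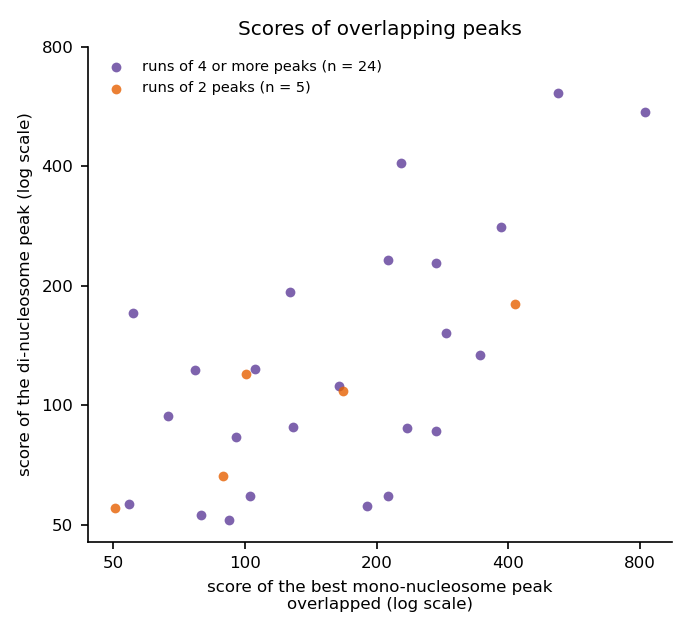
Each point is one of the 29 clustered di-nucleosome peaks that overlap a mono-nucleosome peak, with the score of the best mono-nucleosome peak on the horizontal and its own score on the vertical axis, both logarithmic; colours separate 24 peaks in runs of 4 or more from 5 in runs of 2. The scores of the lists rise together with wide scatter (rho = 0.611), where the best of up to 5 mono-nucleosome peaks was taken.

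Most peaks with high scores lay in runs. Of the 60 peaks with a score above 100 on these autosomes 55 were clustered, beside 10.7% of all 1824 peaks entered. In the mono-nucleosome list 39 of 149 clustered peaks exceeded 100, or 26.2% (95% Wilson interval 19.8% to 33.8%), beside 4.03% of the whole list and 4 of 1408 peaks without a neighbour. In the di-nucleosome list 16 of 47 did, or 34.0% (22.2% to 48.3%), beside 9.58% of the whole list and 1 of 220 without a neighbour. The 5 unclustered peaks above 100 had scores from 106 to 126, the highest at chr10:27228453-27229346. The rule did not use scores, but a strong region can be called in both lists or as several peaks and is then clustered for that reason. Counting only neighbours of the same list, 35 of 43 mono-nucleosome peaks above 100 (81.4%) had one within 20 kb, against 8.54% of all mono-nucleosome peaks entered, and 12 of 17 di-nucleosome peaks (70.6%), against 11.2%. This count leaves out neighbours of the other list only. A strong region called as several peaks of its own list is still counted, so nothing is read from these shares or from the 55 of 60.

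Clustered peaks without overlap had lower median scores than those with it. Overlap needs a call in both lists, and a wider peak has more chances to overlap. Median widths were 1100.5 bp for overlapping mono-nucleosome members and 660 bp for those in mixed runs without overlap. In the di-nucleosome list they were 2216 bp and 1348.5 bp. Nothing is therefore read from the difference in scores. Runs of mono-nucleosome peaks alone hold only 2 or 3 peaks. The 80 mono-nucleosome peaks in all runs of 2 or 3 had a median of 57.7, so list and run size are not separated. Scores had a median of 56.1 for the 64 mono-nucleosome peaks in runs of that list alone, close to the 54.9 of peaks without a neighbour (95% order-statistic intervals 53.9 to 58.9 and 54.5 to 55.5). It was 66.0 for the 41 mono-nucleosome peaks in mixed runs that overlapped no di-nucleosome peak (57.9 to 77.3), and 122 for the 44 that did (95.4 to 190). For di-nucleosome peaks the median was 55.9 without a neighbour, 56.4 for the 18 clustered peaks without overlap and 112 for the 29 with overlap (83.4 to 171). All 16 clustered di-nucleosome peaks above 100 overlapped a mono-nucleosome peak, whereas 7 of 21 below 60 did. In the mono-nucleosome list the same shares were 28 of 39 and 5 of 65. At any score, 16.8% of the whole di-nucleosome and 5.24% of the whole mono-nucleosome list overlapped. Peaks without a neighbour cannot overlap, which raises every share among the members. Intervals here treat peaks as independent, although peaks of a run are neighbours from the same library.

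Among the runs of mono-nucleosome peaks alone, 3 had a peak above 100. These peaks were at chr10:69523723-69524522 with a score of 132, at chr19:50639123-50640268 with 130.0 and at chr1:161581546-161582143 with 103. The last belongs to the pair that follows the large runs at chr1:161362169-161413047 and chr1:161480661-161510170. In the other 28 such runs no score exceeded 100, and in 13 of the 31 none reached 60.

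**Figure D4:**
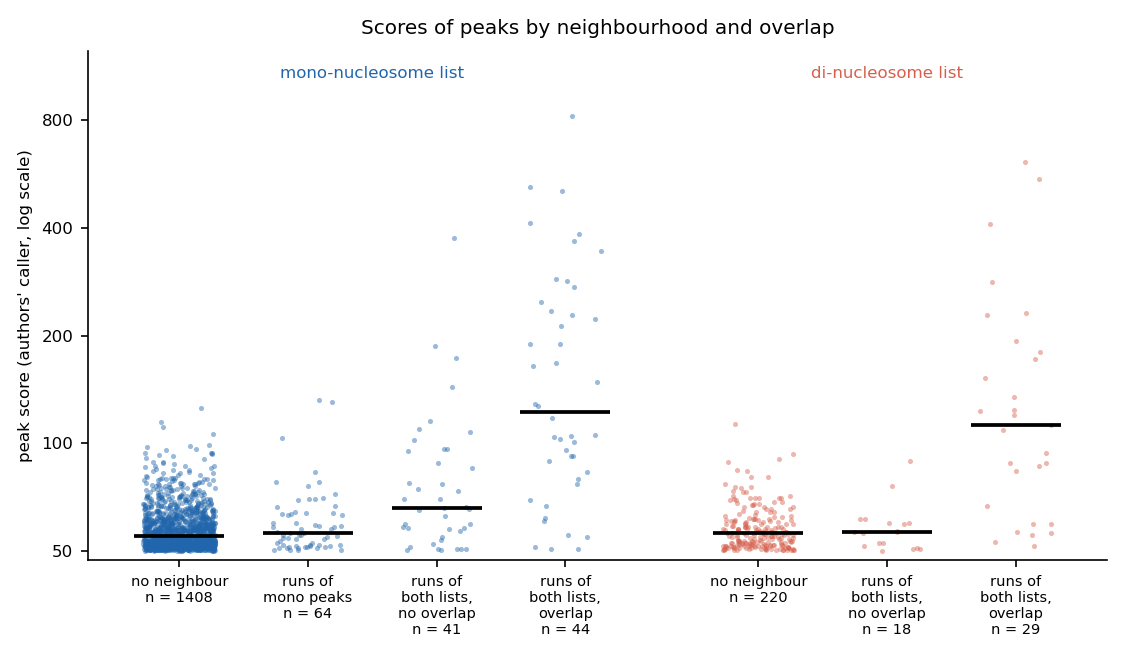
Points are peak scores on a logarithmic axis, for the mono-nucleosome list (blue) and the di-nucleosome list (red), by whether the peak had no neighbour, lay in a run of mono-nucleosome peaks only, or lay in a run of both lists without or with overlap; black lines are medians. The medians of the overlapping peaks, 122 and 112, stand above those of the peaks without a neighbour, 54.9 and 55.9. Overlap needs a call in both lists, so the difference is a description.

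Clustered peaks were also wider. The median width was 705 bp for clustered mono-nucleosome peaks and 543 bp for those without a neighbour, and 1879 bp against 1184 bp in the di-nucleosome list. Spearman's rho of width and score was 0.764 across the 149 clustered mono-nucleosome peaks and 0.296 across all entered peaks of that list. In the di-nucleosome list the values were 0.502 and 0.360. The width enters the edge-to-edge distance used by the rule, and the widths are therefore a description.

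Strong and weak peaks were found side by side. In the 11 runs of 4 or more, 46 of 101 peaks exceeded 100 and 26 were below 60, and 10 of the 11 had at least 1 peak below 60. The run at chr1:145392941-145401717 was the exception, with no score below 285. Of the top 10 scores in the whole mono-nucleosome list, 4 lay on these autosomes outside the stretch left out of chromosome 17, and all 4 were clustered. The corresponding number was 6 of 10 in the di-nucleosome list, all clustered. Among the highest 100 of each list, 43 of 56 mono-nucleosome and 23 of 49 di-nucleosome peaks on these autosomes were clustered. Of all peaks entered, 9.57% of the mono-nucleosome and 17.6% of the di-nucleosome list were clustered. A strong region called in both lists or as several peaks is clustered for that reason, so nothing is read from these counts.

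The members were spread unevenly over the chromosomes. Chromosome 1 had 42 clustered peaks in 10 runs, chromosome 19 had 24 in 11 runs and chromosome 16 had 23 in 3 runs, followed by chromosomes 5 and 12 with 21 each. Chromosome 16 had the largest share of its peaks clustered, 32.4%, followed by chromosome 14 with 21.8% and chromosome 19 with 18.0%. Chromosome 2 entered with the most peaks, 249, and had only 8 clustered, or 3.21%. On 8 autosomes, 3, 4, 7, 8, 9, 13, 20 and 21, none of the 262 peaks was clustered. Chromosome 19 differed from the others with many clustered peaks in having no run above 3 peaks. Its runs included 6 pairs of 1 peak of each list, 3 of which overlapped. The strongest of these, at chr19:1382261-1384529, had scores of 167 and 109.

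**Figure D5:**
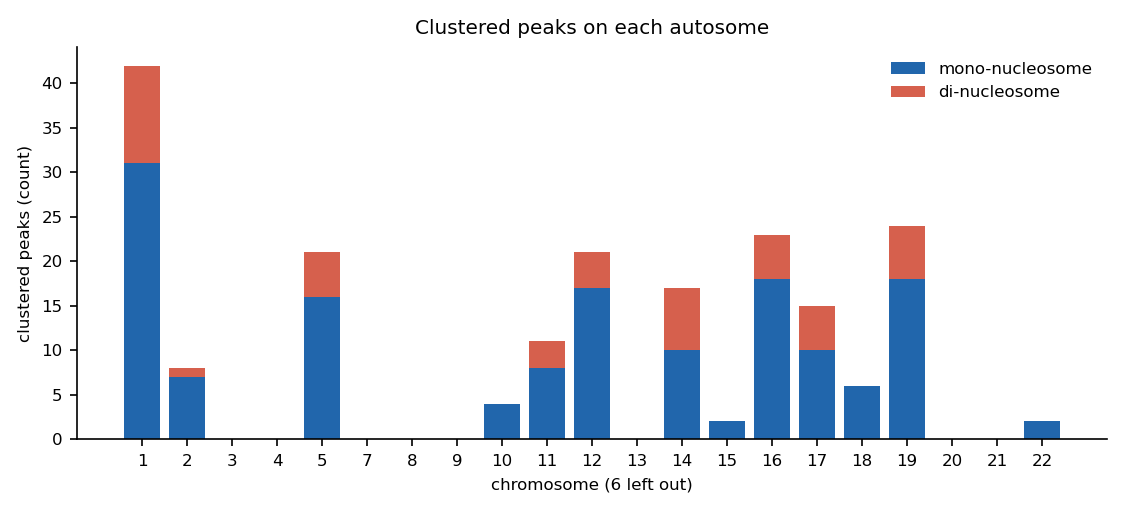
Bars give the number of clustered peaks on each autosome other than 6, mono-nucleosome peaks in blue and di-nucleosome peaks in red. Chromosome 1 has 42, and 8 autosomes have none.

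Gene content was described by chromosome only, since the gene table used here (RefSeq, GRCh38.p14) is of another build than the peaks and no gene was placed against a peak. Human tRNA genes are short genes transcribed by RNA polymerase III that often lie in groups. The 7 autosomes with a run of 4 or more (1, 5, 11, 12, 14, 16 and 17) carry 216 of the 284 tRNA genes on the 21 autosomes, with 9 to 98 each. They also entered with many peaks, from 71 on chromosome 16 to 243 on chromosome 1. Chromosome 1 alone carries 98 of the 216 tRNA genes. The 216 of 284 was not set against the share of peaks entered on these 7 autosomes, so nothing is read from it. The 8 autosomes without a clustered peak carry 39 tRNA genes, of which 22 are on chromosome 7, and 262 of the 1824 peaks entered. When tRNA genes at most 20 kb apart were joined in the same way, the largest group had 26 genes on chromosome 1, 14 on chromosome 16, 13 on chromosome 5 and 8 on chromosome 11. It had 7 genes on chromosomes 14 and 17, 6 on chromosome 7 and 5 on chromosome 12. On chromosome 19, with 24 clustered peaks and 7 tRNA genes, the largest group had 2. Chromosomes 10, 18 and 22 had clustered peaks but no group of tRNA genes. Across the 21 autosomes the number of clustered peaks had a Spearman's rho of 0.646 with tRNA genes, 0.820 with the number of peaks entered, 0.538 with protein-coding genes and -0.02 with histone genes. Pearson's r was 0.777, 0.718, 0.713 and 0.634 respectively, so that the measures differ most for histone genes, of which chromosome 1 carries 15. Chromosomes with more peaks of any kind have more that can be clustered, so these values share that number, and no relation of a run to a gene was tested.

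At the limit of 20 kb, the widest gaps still joined were 19389 bp (on chromosome 2), 18988 bp and 17974 bp (both on chromosome 12). The narrowest not joined were 20061 bp on chromosome 19, 20948 bp on chromosome 12 and 21063 bp on chromosome 14. All 12 peaks on either side of these gaps were mono-nucleosome peaks, with scores from 51.0 to 77.6. Large runs also ended close to the limit. The chromosome 16 run, which ends in a di-nucleosome peak with a score of 282, was 21.5 kb from the next peak, and the pair of large runs on chromosome 14 was separated by 23.8 kb. The nearest peak outside a run of 4 or more, on either side, was at a median of 67.6 kb, with 21.5 kb at the least and 1449 kb at the most. The median was 130 kb for runs of 2 peaks and 156 kb for runs of mono-nucleosome peaks only. The limit itself sets the lowest possible distance at 20 kb.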

How the data were processed

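Peaks were taken from the authors' deposited lists, 1 per size class, of HA ChIP over input in induced cells. Each row has a chromosome, start, end and a score, deposited by the authors as given by MACS, as the peak names show; the scale and settings of the caller are not given in the sources used here. Submitters' processing notes name CASAVA 1.4, BWA and hg19. The lists hold no counts, and the depth of each library is unknown. Starts were converted to count from 1. Chromosome ends came from GenomeInfoDb 1.38.1 in R 4.3.3. Peaks of both lists were pooled, sorted and joined at gaps of at most 20 kb; runs of at least 2 were kept. The steps were tested on simulated lists. No significance test was made, since each condition has 1 library. The members, lists and classes were chosen with earlier results of these data known. Runs named were the 10 with the most peaks, those at the stated places of chromosomes 1, 5 and 16, those with the 5 highest scores of each list, and the gaps nearest the limit; other runs and peaks were named after their values were seen. Gene assignment, motifs and sequences need an hg19 reference and were not analysed here. Python 3.11.15, pandas 2.3.3, scipy 1.17.1 and matplotlib 3.10.9 were used.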

Additional observations from a re-analysis of the deposited data

How the results depend on the processing

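Of 59 values recomputed under other settings, 36 stayed within 1.5 times the count, or within the 95% interval of the share or median. With peaks joined at 5 kb there were 126 clustered peaks in 36 runs, with 74.4% of di-nucleosome and 50.6% of mono-nucleosome members overlapping and a mono-nucleosome median score of 89.0. With 50 kb there were 337 in 118 runs, with 45.3% and 16.1% overlapping and a median of 57.7. With the stricter score, no lower than a list's median, there were 106 peaks in 23 runs, 16 of both lists, with 46.7% of mono-nucleosome members overlapping and median scores of 101 and 109. Runs of 3 or more held 110 peaks in 14 runs, 12 of both lists, with 50.6% of mono-nucleosome members overlapping and a median of 92.2. When a single mono-nucleosome peak had to cover at least 50% of the di-nucleosome peak, the shares were 19.1% and 6.04%. Coverage by several mono-nucleosome peaks together was not counted in this setting. These settings change which peaks enter or count by construction. Joining each list on its own leaves no mixed runs to count. No paired analysis was possible because the conditions are single libraries without replicate numbers. Without depth, a place without a peak may have a score just under the lowest listed.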

Other observations

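The gaps between successive peaks on these autosomes had no empty zone at the 20 kb limit. Peaks touched or overlapped at 47 steps, always between the lists, and 18 gaps were of 1 to 1000 bp. There were 22 gaps above 5 and up to 10 kb, 17 up to 15 kb, 10 up to 20 kb, 15 up to 25 kb and 10 up to 30 kb. Of the 139 steps within runs, 74 were gaps of more than 1 kb.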
